A study of Mus musculus with 6 samples.

Results

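Histone acetyltransferases are the enzymes that place acetyl groups on lysines of histone tails. The group described here is 10 genes, taken by name from the deposited table, which holds 47729 genes: *Ep300*, *Crebbp*, *Kat2a*, *Kat2b*, *Hat1*, *Kat5*, *Kat6a*, *Kat6b*, *Kat7* and *Kat8*. Together they have 65 of the 115220 listed transcripts. Ribosome-associated RNA was sequenced from the mPFC of adult male C57BL/6 mice in 3 Ctrl libraries and 3 libraries from Gsk3sKO in mPFC D2. Mice of both groups were D2Cre/LSL-Flag-Cas9/RiboTag, that is, they carried Cre from a D2 receptor bacterial artificial chromosome transgene, Cas9 behind a stop cassette that Cre removes, and a hemagglutinin tag on the Rpl22 ribosomal subunit that Cre switches on. Ctrl mice received AAV GFP, which carries no sgRNA, and Gsk3sKO in mPFC D2 mice received AAV Gsk3sgRNA/GFP, both injected into the mPFC 3 weeks before dissection. All Cre-positive cells of the dissected tissue carry the tag, whether or not the virus reached them. The labels do not give the number of mice behind a library, so the error given here is the library-to-library spread, part or all of which can be technical.

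Acetylation of histone tails loosens the contact of histones with DNA and gives bromodomain proteins a mark to bind, and it accompanies active transcription. The enzymes fall into families. p300 (*Ep300*) and CBP (*Crebbp*) are close paralogues that are recruited by many transcription factors, among them CREB, and are known in neurons for their part in activity-dependent transcription and long-term memory. The GNAT family holds GCN5 (*Kat2a*) and PCAF (*Kat2b*), the catalytic subunits of SAGA and ATAC, and *Hat1*, which acetylates newly made histone H4 before it is assembled into chromatin. The MYST family holds TIP60 (*Kat5*), MOZ (*Kat6a*), MORF (*Kat6b*), HBO1 (*Kat7*) and MOF (*Kat8*), which work in multi-subunit complexes, some of whose subunits are shared between enzymes.

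The values are FPKM, the fragments assigned to a transcript divided by its length and by the mapped fragments of the library, and a gene total is the sum over the transcripts of a gene. The spacing of low values puts the libraries at roughly 23500000 to 45200000 reads. The targeted gene was looked at first. Its RNA alone does not check the labels, since the paper scored the knockout in D2 neurons of the mPFC by protein staining. The *Gsk3b* total was 35.6, 53.8 and 56.5 FPKM in Ctrl and 36.9, 37.0 and 33.6 FPKM in Gsk3sKO in mPFC D2. Its log2 fold change was -0.40 (standard error or SE 0.19, adjusted p = 0.773 in limma). The groups overlapped through Ctrl replicate 1, without which the log2 fold change was -0.61. The transcript ENSMUST00000023507 of *Gsk3b* was 33.5, 34.7 and 36.2 FPKM in Ctrl against 24.8, 21.6 and 21.2, with no overlap (log2 fold change -0.61, SE 0.14, adjusted p = 0.619 in limma). ENSMUST00000114750 was 1.85, 18.7 and 20.03 FPKM against 11.9, 15.4 and 12.5. *Drd2*, the receptor gene whose promoter drives Cre, was above 0 in every library, from 1.58 to 14.1 FPKM in Ctrl and from 5.96 to 8.32 in Gsk3sKO in mPFC D2. Markers of other cells were present too. All 6 astrocyte markers were above 0 in every library, with a summed level of 144.5 to 177.0 FPKM in Ctrl and 143.8 to 192.5 in Gsk3sKO in mPFC D2, and the 6 microglia markers summed to 20.3 to 26.7 and 14.7 to 21.6 FPKM. The 6 markers each of oligodendrocytes and endothelial cells summed to 118.4 to 183.2 and 15.2 to 63.5 FPKM in Ctrl and to 128.1 to 165.4 and 22.57 to 59.99 in Gsk3sKO in mPFC D2, with 1 oligodendrocyte marker at 0 in some library. The 6 excitatory and 6 inhibitory neuron markers summed to 1550 to 1801 and 990 to 1318 FPKM in Ctrl and to 1354 to 1641 and 935 to 1029 in Gsk3sKO in mPFC D2. The part these other cells play in the levels below was not tested, and in such bulk material fewer cells of a type and less RNA per cell cannot be told apart.

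Each of the 10 genes was detected in every library. Apart from *Kat2b*, their totals lay between 8.08 and 36.1 FPKM. In Ctrl the order from the highest was *Crebbp* (30.0 ± 6.49 FPKM, SD, n = 3), *Kat7* (25.6 ± 3.64), *Kat5* (22.8 ± 0.565), *Kat6b* (21.5 ± 0.301), *Kat2a* (20.03 ± 3.49), *Kat6a* (20.03 ± 1.25), *Hat1* (16.3 ± 0.752), *Ep300* (14.3 ± 1.95), *Kat8* (10.1 ± 1.75) and *Kat2b* (2.70 ± 0.320). Among neighbours in this order the Ctrl ranges were apart for *Kat5* and *Kat6b*, for *Kat6a* and *Hat1*, for *Ep300* and *Kat8*, and for *Kat8* and *Kat2b*. The other neighbours overlapped. Over all 6 libraries *Crebbp* lay above 81.8% of the 12874 tested gene totals and *Kat2b* above 19.2%. The genes lie on separate chromosomes except for a pair on chromosome 11 (GRCm38). *Kat2a* spans chr11:100704746-100712465 and *Kat7* chr11:95274259-95310246, both on the minus strand. *Crebbp* spans chr16:4081328-4213997 (minus), *Ep300* chr15:81585351-81652077 (plus), *Kat6b* chr14:21481434-21672478 (plus), *Kat6a* chr8:22859535-22943259 (plus) and *Kat2b* chr17:53566861-53672720 (plus). *Hat1* spans chr2:71388958-71441622 (plus), *Kat5* chr19:5603014-5610237 (minus) and *Kat8* chr7:127912516-127925837 (plus). By the approximate depths, the lowest member rested on about 265 to 437 reads per library and *Crebbp* on about 5865 to 11516.

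**Figure D1:**
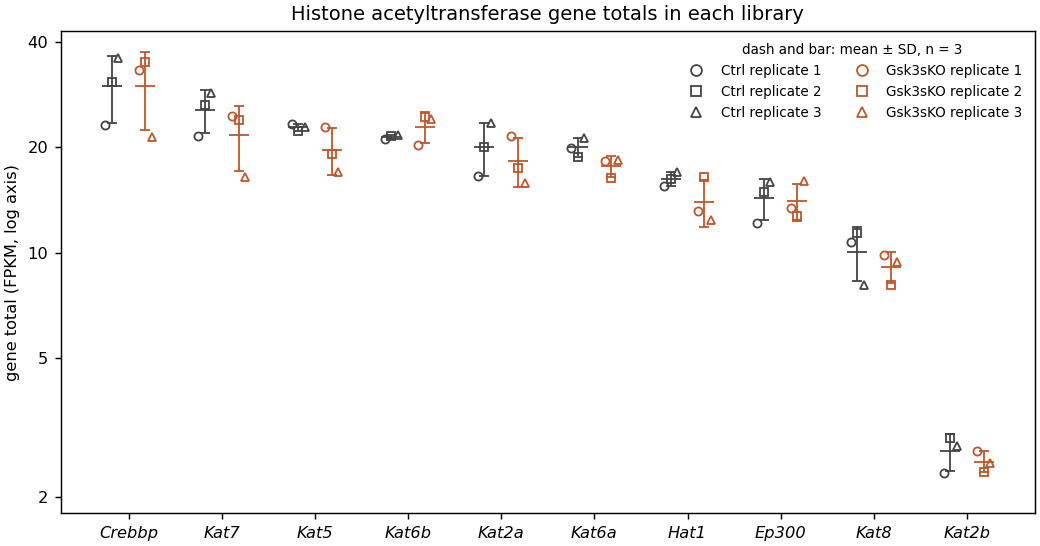
Gene totals of the 10 histone acetyltransferases in FPKM on a log axis, ordered by their Ctrl mean. Symbols are single libraries (3 Ctrl, 3 Gsk3sKO), and the dash and bar give the mean ± SD. The groups overlap for every gene except *Kat6a*, and *Kat2b* sits far below the rest at 2.34 to 2.96 FPKM.

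To find whether the knockout changed the ribosome-associated RNA of these enzymes, each gene total was compared between Gsk3sKO in mPFC D2 and Ctrl. None of the 10 had an unadjusted p under 0.05 in limma, while 6.56% of all gene totals did (5.20% with the knockout lower and 1.36% with it higher), and 0.0466% of all gene totals had an adjusted p under 0.05. The unadjusted p of the members lay between 0.21 and 0.967 and the adjusted p between 0.849 and 0.998. The log2 fold change was below 0 for 9 of 10 members, against 58.9% of all gene totals, and its median over the members was -0.12, against -0.062 over all totals. After each library was rescaled to the median ratio, 7 of 10 members and 6633 of all 12874 gene totals were below 0. The median was then -0.067 for the members and -0.011 for all totals. The 95% intervals bound what could have been missed. The lowest lower end was -0.69 (*Kat7*) and the highest upper end 0.53 (*Crebbp*) on the log2(FPKM + 1) scale. That is 0.619 and 1.44 times the Ctrl value of FPKM + 1. On this scale every member total had an interval inside these bounds. For the low *Kat2b* this scale understates a change in FPKM, so its interval in FPKM is wider.

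**Figure D2:**
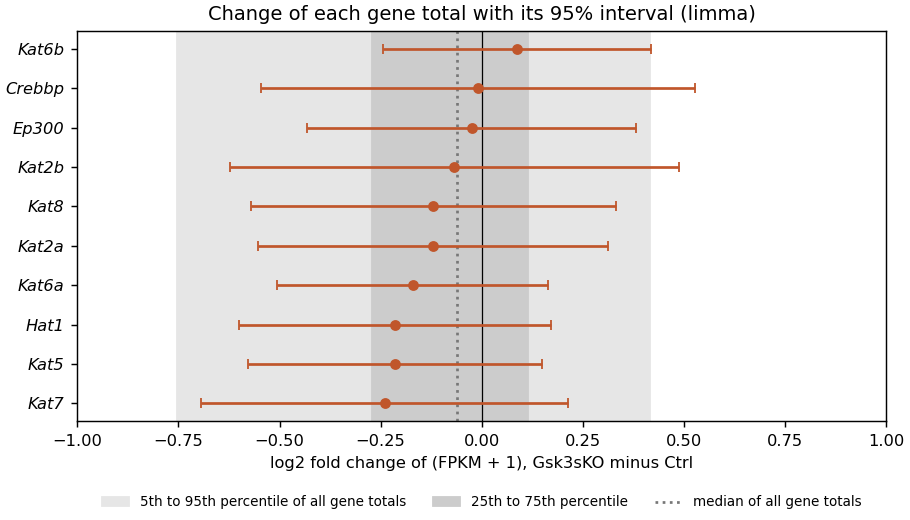
Log2 fold change of each member total, Gsk3sKO minus Ctrl on log2(FPKM + 1), with the 95% interval from limma (3 libraries a group). Grey bands span the middle of all 12874 tested gene totals, from -0.75 at the 5th to 0.41 at the 95th percentile and from -0.27 at the 25th to 0.12 at the 75th. All 10 points lie inside the inner band and every interval includes 0.

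p300 and CBP lay closest to no difference. The *Crebbp* total was 23.2, 30.8 and 36.1 FPKM in Ctrl and 33.4, 35.2 and 21.4 FPKM in Gsk3sKO in mPFC D2. The spread within each group was large here, and the lowest value of all was Gsk3sKO replicate 3, just under Ctrl replicate 1. Group means were 30.0 and 30.0 FPKM, with a log2 fold change of -0.01 (SE 0.23). The *Ep300* total was 12.2, 14.9 and 15.95 FPKM in Ctrl and 13.5, 12.7 and 15.99 FPKM in Gsk3sKO in mPFC D2. The groups were interleaved, and the log2 fold change was -0.03 (SE 0.18). Both signs turned positive under the rescaling, to 0.045 and 0.029.

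In the GNAT family, *Hat1* had a total of 15.5, 16.3 and 17.0 FPKM in Ctrl and 13.1, 16.5 and 12.4 FPKM in Gsk3sKO in mPFC D2. Gsk3sKO replicates 1 and 3 lay below all Ctrl libraries, and replicate 2 lay among them (log2 fold change -0.21, SE 0.17, 2-sided exact permutation test p = 0.3). The *Kat2a* total was 16.5, 20.04 and 23.5 FPKM in Ctrl and 21.6, 17.5 and 15.9 FPKM in Gsk3sKO in mPFC D2, with overlapping groups and a log2 fold change of -0.12 (SE 0.19). *Kat2b* was low throughout, at 2.34, 2.96 and 2.81 FPKM against 2.71, 2.36 and 2.50 FPKM (log2 fold change -0.07, SE 0.24). GCN5 RNA thus exceeded that of its paralogue PCAF in all 6 libraries.

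Among the MYST enzymes, *Kat6a* was the member whose groups did not overlap. Its total was 19.9, 18.8 and 21.3 FPKM in Ctrl and 18.3, 16.3 and 18.5 FPKM in Gsk3sKO in mPFC D2. The gap between the groups was small, with a log2 fold change of -0.17 (SE 0.15), and the 2-sided exact permutation test gave p = 0.1, below which 3 against 3 libraries cannot go. All knockout libraries lay below all Ctrl libraries for 8.30% of all gene totals and above them for 3.71%, so 1 of 10 is near the background. *Kat6b* was the only member with a positive log2 fold change, 0.09 (SE 0.14). It was tightly grouped in Ctrl at 21.1, 21.5 and 21.7 FPKM, and was 20.3, 24.4 and 24.0 FPKM in Gsk3sKO in mPFC D2. *Kat5*, for which a single transcript is listed, was 23.4, 22.3 and 22.8 FPKM in Ctrl and 22.9, 19.1 and 17.0 FPKM in Gsk3sKO in mPFC D2. Here too the Ctrl values were close together, and Gsk3sKO replicates 2 and 3 were below them (log2 fold change -0.22, SE 0.16, 2-sided exact permutation test p = 0.3). *Kat7* had the most negative log2 fold change, -0.24 (SE 0.20), with 21.6, 26.5 and 28.7 FPKM in Ctrl and 24.6, 24.0 and 16.5 FPKM in Gsk3sKO in mPFC D2. That difference rested largely on Gsk3sKO replicate 3, without which it was -0.063. *Kat8* was 10.7, 11.4 and 8.08 FPKM in Ctrl and 9.85, 8.10 and 9.41 FPKM in Gsk3sKO in mPFC D2 (log2 fold change -0.12, SE 0.20).

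In some libraries, though not in all, most members sat on the same side of their means. Set against each gene's own mean over the 6 libraries, 9 and 8 of the 10 members were above it in Ctrl replicates 2 and 3, and 2 of 10 in Gsk3sKO replicate 3, the library with the lowest mean deviation (-0.15 on the log2 scale). Ctrl replicate 1 had 4 members above their mean and Gsk3sKO replicates 1 and 2 had 6 and 4. The median deviation of all tested gene totals had the same sign as the mean of the members in each library, and ran from -0.068 in Gsk3sKO replicate 3 to 0.069 in Ctrl replicate 3, where the members stood at 0.132. Among the gene totals whose profile over the 6 libraries was most like the mean of the members were *Cyb561d2* (Pearson's r = 0.995) and *Abcb10* (r = 0.995). With so few libraries a high r is weak evidence of likeness, and 82 of 12864 gene totals had r above 0.95.

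Paralogues were compared within each library next, as the difference of their log2(FPKM + 1), called the log2 ratio here. The added 1 makes it smaller than the ratio of FPKM where a gene is low, as *Kat2b* is. The log2 ratio of *Ep300* to *Crebbp* was -0.88, -0.9998 and -1.13 in Ctrl and -1.25, -1.40 and -0.40 in Gsk3sKO in mPFC D2. Gsk3sKO replicates 1 and 2 lay below Ctrl and replicate 3 above it, so the group means differed by only -0.015 (2-sided exact permutation test, p = 1). For *Kat2a* to *Kat2b* the ratio was 2.39, 2.41 and 2.69 in Ctrl and 2.60, 2.46 and 2.27 in Gsk3sKO in mPFC D2, a difference of -0.053 (2-sided exact permutation test, p = 0.7). For *Kat6a* to *Kat6b* it was -0.08, -0.18 and -0.03 in Ctrl and -0.14, -0.55 and -0.36 in Gsk3sKO in mPFC D2. This was the largest of the 3 differences, -0.26, with Gsk3sKO replicate 1 inside the Ctrl range (2-sided exact permutation test, p = 0.2, adjusted p = 0.6 over the 3 pairs).

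Transcripts were examined one by one, since a steady gene total can hide a switch between isoforms. Of the 65 listed transcripts, 58 were above 0 in some library, and 20 had a mean of at least 1 FPKM and were tested, from 1 for *Ep300*, *Kat2b*, *Kat5* and *Kat8* to 4 for *Kat7*. None of the 20 passed an unadjusted p under 0.05 in limma, while 5.56% of all transcripts did, and the smallest unadjusted p was 0.12 (adjusted p = 0.857). Of the 20, 11 had a negative log2 fold change, against 55.2% of all transcripts. The groups did not overlap for 1, against 11.2% of all transcripts (6.96% with the knockout lower). This was the main *Hat1* transcript ENSMUST00000028408, at 15.3, 14.2 and 16.003 FPKM in Ctrl and 11.5, 13.7 and 12.4 FPKM in Gsk3sKO in mPFC D2. All Gsk3sKO libraries were lower, with a log2 fold change of -0.26 (SE 0.17, adjusted p = 0.88 in limma, 2-sided exact permutation test p = 0.1). The result depended on moderation: without it, the unadjusted p of the same model was 0.0353.

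The isoforms that share out each gene total share many of their exonic bases: the *Kat2a* pair differs by 3 bases, and the shorter *Crebbp* and *Hat1* forms lie wholly within the longer ones. Stretches of coding sequence that set them apart are shown here, from the GENCODE transcript sequences of GRCm38, in the direction of the transcript. Capitals mark the bases present in one isoform and skipped in the other, and lower case the 9 coding bases on each side. The *Crebbp* stretch lies at chr16:4137366-4137479 on the minus strand, that of *Kat7* at chr11:95291520-95291609 (minus), that of *Hat1* at chr2:71434034-71434054 (plus) and that of *Kat2a* at chr11:100708983-100708985 (minus). All 4 are coding exon sequence and keep the reading frame, with lengths of 114, 90, 21 and 3 bases.
Crebbp: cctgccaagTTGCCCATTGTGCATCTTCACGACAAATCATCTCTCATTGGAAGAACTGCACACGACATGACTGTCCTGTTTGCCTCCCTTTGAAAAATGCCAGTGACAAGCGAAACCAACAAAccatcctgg
Kat7: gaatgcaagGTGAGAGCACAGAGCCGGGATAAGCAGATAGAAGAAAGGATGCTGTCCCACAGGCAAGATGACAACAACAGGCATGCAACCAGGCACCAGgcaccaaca
Hat1: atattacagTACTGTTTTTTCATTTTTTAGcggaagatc
Kat2a: ccatgccagCAGgggagaaga

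For *Crebbp*, ENSMUST00000023165 holds the longest of these stretches and ENSMUST00000205765 skips it. The isoform with the exon made up 27.6%, 19.9% and 9.7% of the FPKM of the pair in Ctrl and 23.9%, 15.5% and 49.7% in Gsk3sKO in mPFC D2. The groups overlapped, and Gsk3sKO replicate 3 stood highest. In FPKM the isoform with the exon was 6.03, 6.07 and 3.51 in Ctrl and 7.83, 5.46 and 10.4 in Gsk3sKO in mPFC D2 (log2 fold change 0.51, SE 0.33, adjusted p = 0.879 in limma). The skipping isoform was 15.8, 24.5 and 32.6 against 24.98, 29.7 and 10.6 FPKM (log2 fold change -0.21, SE 0.44). The pair also differs outside the coding sequence. In all, 3071 exonic bases of the longer isoform are absent from the other, with the coding stretch among them.

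The 3 bases of *Kat2a*, a CAG that repeats the CAG before it, are the only exonic difference between ENSMUST00000103118, which has them, and ENSMUST00000006973. ENSMUST00000103118 took 15.7%, 50.6% and 36.7% of the pair in Ctrl and 48.1%, 54.3% and 0.0% in Gsk3sKO in mPFC D2. Its share ran from 0.0% to 54.3% within the knockout group alone. Another tested transcript, ENSMUST00000126299, which has no annotated coding sequence, also holds these 3 bases and is outside the pair. It was 0.131, 4.96 and 0.130 FPKM in Ctrl and 5.02, 0.617 and 0.570 in Gsk3sKO in mPFC D2. The 21-base stretch of *Hat1*, rich in T and ending in AG, belongs to the minor isoform ENSMUST00000112122, which held 1.4%, 12.3% and 6.1% of its pair in Ctrl and 12.7%, 16.8% and 0.0% in Gsk3sKO in mPFC D2.

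*Kat7* has 4 tested isoforms, which hold or skip the 90-base exon and start at an upstream or a downstream first exon. The exon was carried by 62.8%, 31.7% and 64.9% of their FPKM in Ctrl and by 54.3%, 51.5% and 55.6% in Gsk3sKO in mPFC D2. Group means were 53.1% ± 18.6 and 53.8% ± 2.1 (SD, n = 3). The first exon varied far more. Isoforms that start at the upstream exon made up 97.9%, 41.6% and 14.6% in Ctrl and 68.9%, 58.9% and all of it in Gsk3sKO in mPFC D2, so the Ctrl libraries spanned most of the scale. *Kat6b* showed the widest split. ENSMUST00000182964 has a 327-base coding stretch at chr14:21624889-21625215 that ENSMUST00000182405 lacks. ENSMUST00000182964 had 0, 7.52 and 0 FPKM in Ctrl and 12.1, 1.38 and 17.5 FPKM in Gsk3sKO in mPFC D2 (log2 fold change 2.03, SE 1.13, adjusted p = 0.857 in limma). ENSMUST00000182405 was 16.3, 5.55 and 17.6 FPKM in Ctrl and 4.07, 14.7 and 0.345 FPKM in Gsk3sKO in mPFC D2 (log2 fold change -1.43, SE 0.93, adjusted p = 0.879 in limma). In all, 898 exonic bases of ENSMUST00000182964, the stretch among them, are absent from ENSMUST00000182405, and 176 the other way. ENSMUST00000069648, below the filter, has the coding length of ENSMUST00000182964, 5616 bases. It was 1.03, 1.64 and 0.523 FPKM in Ctrl and 0.599, 0 and 0 in Gsk3sKO in mPFC D2. Whether it holds the stretch was not examined. ENSMUST00000182964 was the higher of the pair in Ctrl replicate 2 and in Gsk3sKO replicates 1 and 3, and the lower in the other libraries. The *Kat6b* total stayed between 20.3 and 24.4 FPKM. Ctrl replicate 2 and Gsk3sKO replicate 2 each lay furthest from the rest of their group, and leaving out such a library favours a lower p. Without Ctrl replicate 2 the log2 fold change of ENSMUST00000182964 was 3.06 (limma unadjusted p = 0.0272, adjusted p = 0.949), and without Gsk3sKO replicate 2 it was 2.93 (unadjusted p = 0.0423, adjusted p = 0.903). Leaving out any other library lowered it, to 1.45 at the least, without Gsk3sKO replicate 3. ENSMUST00000182405 stood at -2.30 without Gsk3sKO replicate 2 (limma unadjusted p = 0.0313, adjusted p = 0.903) and at -0.52 without Gsk3sKO replicate 3, over the threshold. For *Kat7*, the leading ENSMUST00000107734 was 13.2, 2.88 and 2.24 FPKM in Ctrl and 7.73, 7.13 and 9.09 FPKM in Gsk3sKO in mPFC D2, and its log2 fold change went from 0.67 to 1.33 when Ctrl replicate 1 was left out (limma unadjusted p = 0.00515, adjusted p = 0.363). It went the other way, to 0.40 and 0.27, without Ctrl replicate 2 and without Ctrl replicate 3.

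**Figure D3:**
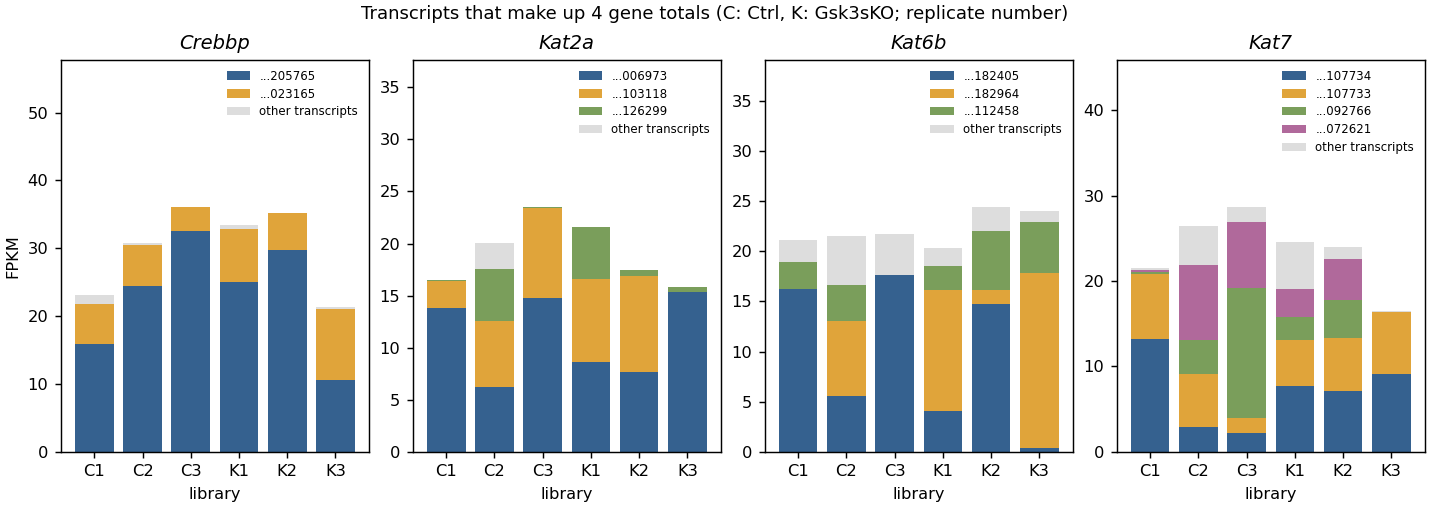
FPKM of the tested transcripts of *Crebbp*, *Kat2a*, *Kat6b* and *Kat7* in each library, stacked to the gene total. C1 to C3 are the Ctrl and K1 to K3 the Gsk3sKO libraries, colours are transcripts named by the last digits of their identifier, and grey holds the transcripts below the filter. The *Kat6b* bars have nearly equal height, between 20.3 and 24.4 FPKM, while their main colour changes from library to library within both groups.

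*Kat6a*, the member whose total did not overlap, was split between ENSMUST00000044331 and ENSMUST00000110696. The main form was 16.7, 17.7 and 15.7 FPKM in Ctrl and 16.02, 15.6 and 17.7 FPKM in Gsk3sKO in mPFC D2, a log2 fold change of -0.02 (SE 0.16). The minor form was 3.27, 1.01 and 5.36 FPKM in Ctrl and 2.25, 0.701 and 0.784 FPKM in Gsk3sKO in mPFC D2 (log2 fold change -0.82, SE 0.56, adjusted p = 0.888 in limma). Most of the difference in the total therefore sat in the minor form, whose own groups overlapped. The leading transcripts of *Ep300*, *Kat2b* and *Kat8* had log2 fold changes of 0.03 (SE 0.22), 0.08 (SE 0.37) and -0.16 (SE 0.23).

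Over all members, the within-group SD of log2(FPKM + 1) had a median of 0.164 for the 10 gene totals and 0.679 for the 20 transcripts, against 0.294 and 0.599 over all tested totals and transcripts. It was 0.834 for the 16 transcripts that share their gene with another tested one and 0.221 for the 4 that do not. The libraries differed in how many isoforms they resolved. All 20 tested transcripts reached 1 FPKM in Ctrl replicate 2 and Gsk3sKO replicate 1, and 13 of 20 in Gsk3sKO replicate 3 and 15 of 20 in Ctrl replicate 1. Those last libraries had 4 and 5 member transcripts below 0.25 FPKM, and among all tested transcripts the share below 0.25 FPKM was 16.9% and 14.3%, against 8.0% in Ctrl replicate 2 and 11.1% in Gsk3sKO replicate 1. Gsk3sKO replicate 2 had 15.9% of all tested transcripts below that level, but no member transcript. The part of this in the isoform splits was not tested.

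The enzymes work inside complexes, and a list of subunits, partners, readers of acetyl-lysine and genes of nuclear acetyl-CoA supply was followed in the same fit. Of 96 listed genes in the table, 94 passed the filter. In limma, 5 of the 94 had an unadjusted p under 0.05 (3 lower, 2 higher), a share of 5.32% beside the 6.56% of all gene totals, and the smallest adjusted p was 0.659. The median log2 fold change was -0.078, close to that of all totals, and 57 of 94 were negative. The groups did not overlap for 8 of 94, with the knockout lower for 5 and higher for 3. This is 8.51%, beside 8.30% of all gene totals lower and 3.71% higher. So small a count does not set the list apart.

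None of the 27 SAGA and ATAC subunits, 18 NuA4/TIP60 subunits, 9 MOZ/MORF and HBO1 subunits and 11 MSL and NSL subunits passed the unadjusted threshold, with median log2 fold changes of -0.11, -0.089, -0.12 and -0.11. The 7 acetyl-lysine readers, which include the BET proteins, and the 4 genes of acetyl-CoA supply had medians of -0.017 and -0.095, and 0 of either had an unadjusted limma p under 0.05.

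The 5 genes under the threshold lay in 3 other lists, all of them short. Median log2 fold changes were -0.27 for the 4 HAT1 partners and -0.41 for the 8 CREB and p300/CBP partners. The 10 other proteins reported to acetylate histones had a median of 0.10, beside -0.062 over all totals. Of the HAT1 partners, 1 of 4 was under the threshold, beside 6.56% of all gene totals, too few to set the list apart. *Rbbp7*, the histone-binding partner of HAT1, was 112.4, 71.7 and 74.99 FPKM in Ctrl and 63.4, 50.5 and 69.3 FPKM in Gsk3sKO in mPFC D2. All knockout libraries were below all Ctrl libraries (log2 fold change -0.48, SE 0.20, limma unadjusted p = 0.0468, adjusted p = 0.752), and Ctrl replicate 1 stood well above the rest. Without that library the log2 fold change was -0.27, and without Gsk3sKO replicate 1 or 2 it was -0.51 or -0.35, each with an unadjusted limma p over the threshold. In the list of CREB and p300/CBP partners, 2 of 8 genes were under the threshold, beside 6.56% of all gene totals, a count too small to set the list apart. *Atf1*, a CREB family transcription factor, was 5.54, 3.21 and 3.98 FPKM in Ctrl and 2.83, 2.43 and 1.10 FPKM in Gsk3sKO in mPFC D2 (log2 fold change -0.77, SE 0.32, adjusted p = 0.75 in limma). *Cited2*, a protein that binds p300 and CBP and competes with other factors for them, was 22.2, 17.4 and 22.3 FPKM against 18.4, 14.4 and 11.3 FPKM. Its groups overlapped (log2 fold change -0.48, SE 0.21, adjusted p = 0.755 in limma). *Atf1* had an unadjusted p of at least 0.05 in limma without any of Ctrl replicates 1 and 3 or Gsk3sKO replicates 2 and 3 (smallest log2 fold change -0.51), and so did *Cited2* (smallest log2 fold change -0.31).

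Among other proteins reported to acetylate histones, 2 of 10 were under the threshold, both with higher knockout values, beside 6.56% of all gene totals under it and 1.36% under it and higher. This count too is small. *Naa60*, an acetyltransferase of the Golgi known mainly for acetylating protein N-termini, was 15.1, 16.2 and 20.03 FPKM in Ctrl and 31.7, 22.2 and 26.6 FPKM in Gsk3sKO in mPFC D2 (log2 fold change 0.61, SE 0.18, adjusted p = 0.659 in limma). *Atf2*, a transcription factor of the bZIP class, was 38.4, 27.9 and 34.2 FPKM against 43.1, 55.2 and 38.4 FPKM (log2 fold change 0.43, SE 0.18, adjusted p = 0.752 in limma). Its groups touched, with Ctrl replicate 1 at 38.42 and Gsk3sKO replicate 3 at 38.45 FPKM. Without Ctrl replicate 2 or Gsk3sKO replicate 2 its log2 fold change was 0.31 or 0.29, and without Ctrl replicate 3 or Gsk3sKO replicate 1 it was 0.45 or 0.46, each with an unadjusted limma p over the threshold. *Naa60* kept an unadjusted p under it in every such fit.

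**Figure D4:**
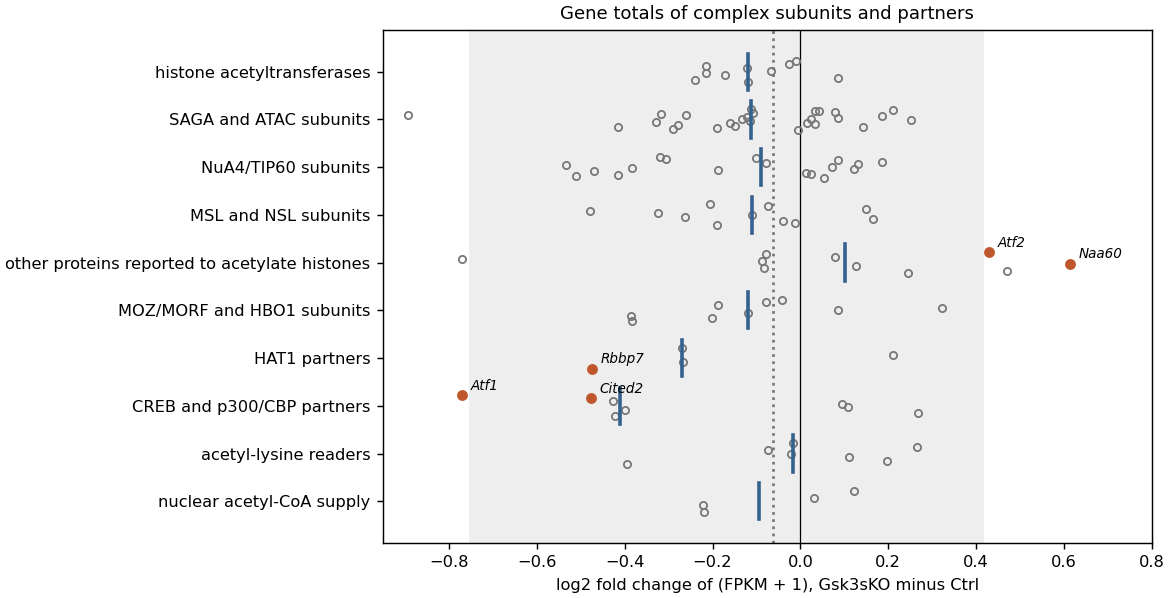
Log2 fold change of gene totals, Gsk3sKO minus Ctrl on log2(FPKM + 1), for the histone acetyltransferases and 9 lists of subunits, partners, readers and acetyl-CoA genes. Each circle is a gene, filled and named where the unadjusted limma p is under 0.05, the blue bar is the list median, and the grey band spans the 5th to 95th percentile of all gene totals. A gene may stand in more than 1 list. Of the 5 named genes, *Atf1*, *Rbbp7* and *Cited2* are lower and *Atf2* and *Naa60* higher, and no histone acetyltransferase is filled.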

How the data were processed

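RNA bound to HA-tagged ribosomes was sequenced with a stranded total RNA kit. The authors deposited 1 table of FPKM per transcript, made, per the submitters' processing notes, with HISAT2 2.1.0, SAMtools 1.9 and StringTie 1.3.4d on GRCm38; the sources used here do not give their settings. Fold changes, p-values and q-values of the authors stand in the table and were not used. FPKM is not a count, so values were taken as log2(FPKM + 1), for transcripts and for sums by gene, and features with a mean of at least 1 FPKM over the 6 libraries were fitted with limma 3.58.1 (R 4.3.3, empirical Bayes with a trend, 2-sided, Benjamini-Hochberg adjustment over all features). A feature was counted at an unadjusted p under 0.05. Single values also had an exact permutation test. Depth was estimated from the steps between low values, of which few fell near whole reads, so it is approximate.

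Transcript structure and sequence came from GENCODE M21 (GRCm38), which matched 114237 transcripts and left 983 unmatched. Named are all members, the leading transcript of each, *Gsk3b*, partner genes counted as above and the 3 gene totals with the most similar profile, of which 1 is not reported here. Other isoforms of the members were chosen after their values were seen. The members and gene lists were chosen with earlier results of these data known. The fit was tested on simulated data. Alternatives were another pseudocount, other filters, median-ratio rescaling, no moderation, a replicate block and leaving out each library. Python 3.11.15, numpy 2.4.6, pandas 2.3.3 and matplotlib 3.10.9 were used.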

Additional observations from a re-analysis of the deposited data

How the results depend on the processing

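Of 441 values recomputed for 38 results, 369 stayed the same, meaning the same direction (and side of the threshold, where limma gave a p) for single values, within 1.5 times for counts, and a shift under the spread between replicates for medians. No member total had an unadjusted limma p under 0.05 in any alternative, and their median log2 fold change stayed between -0.18 and -0.072 as each library was left out. The number of the 20 member transcripts under the threshold was 1 without moderation (*Hat1* ENSMUST00000028408) and 0 to 2 with a library left out, and their median log2 fold change then ran from -0.16 to 0.056. Of all 21584 tested transcripts, 1101 were under it without moderation and 894 to 1733 with a library left out. The member count of 2 was without Gsk3sKO replicate 2, where 987 of all transcripts were under it. Partner totals under it numbered 3 with no filter, with rescaling or without moderation. Of all gene totals, 1121 of 26696, 803 of 12874 and 695 of 12874 were under it in these fits. *Atf1*, *Atf2*, *Cited2* and *Rbbp7* were over it with no filter and without moderation, and *Cited2* and *Rbbp7* with rescaling, while *Naa60* stayed under it in all of these. The partner count was 1 to 10 of 94 with a library left out (1 without Gsk3sKO replicate 2, 10 without Gsk3sKO replicate 1, 2 without Ctrl replicate 1, 3 without Ctrl replicate 3). Of all 12874 gene totals, 638, 1175, 678 and 916 were under the threshold in these fits, in the same order. Of all transcripts, those under it numbered 1917 with no filter and 590 at a mean of at least 5 FPKM, where fewer were tested, against 1200. Rescaling changed the split of all gene totals from 175 higher and 669 lower to 276 and 527. It also reversed *Crebbp* (0.045), *Ep300* (0.029) and *Kat6a* ENSMUST00000044331 (0.0095). With a library left out, log2 fold changes that reversed ran from -0.18 to 0.21 for *Crebbp*, -0.13 to 0.051 for *Ep300*, -0.49 to 0.22 for *Crebbp* ENSMUST00000205765, -0.14 to 0.15 for *Ep300* ENSMUST00000068387, -0.47 to 0.10 for *Kat2a* ENSMUST00000006973, -0.18 to 0.23 for *Kat2b* ENSMUST00000000724, -0.072 to 0.019 for *Kat6a* ENSMUST00000044331 and -0.52 to 0.92 for *Gsk3b* ENSMUST00000114750, while the *Gsk3b* total ran from -0.61 to -0.28. The difference of the log2 ratio then ran from -0.32 to 0.18 for *Ep300* to *Crebbp* and from -0.13 to 0.042 for *Kat2a* to *Kat2b*. The causes were not tested. Deviations of same-numbered libraries from their group means had r of -0.027, -0.011 and -0.081. Centring within each group of 3 balances such r around 0, so they cannot show whether the numbers pair the libraries. The labels do not say either. With the replicate block, 0 member totals, 0 member transcripts and 5 partner totals were under the threshold, with 821 of all gene totals and 1103 of all transcripts. *Atf2* and *Cited2* were then above it, and no other named gene changed side. How small a change these libraries could show was not measured, beyond the intervals of the member totals.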
